A study of Homo sapiens with 6 samples.

Results

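The BCL2 family genes examined here were the 10 rows of the count table named BCL2, BCL2L1, MCL1, BAX, BAK1, BCL2L11, BMF, BBC3, PMAIP1 and BID, out of 60623 genes. They were chosen by name, as the main anti-apoptotic, effector and BH3-only genes, and all 10 passed the filter on low counts that kept 13966 genes for testing. Gene expression was measured by RNA-Seq of total RNA from TC28a2, an immortalized human chondrocyte line, so every sample came from the same line. Cells received either 2 μM mocetinostat, an inhibitor of the class I histone deacetylases, or its solvent DMSO, and RNA was taken after 24 hours, with 3 samples in each group. The samples of a group came from 3 independent experiments, as the study describes them, all on this line.

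BCL2 family proteins decide whether the outer membrane of the mitochondrion stays closed. The anti-apoptotic members hold the effectors BAX and BAK in check, the BH3-only members bind into a groove of the anti-apoptotic proteins or activate the effectors directly, and open effector pores release cytochrome c, which starts the caspase cascade. In chondrocytes, which do not divide often in adult cartilage, this balance is one of the controls on cell loss.

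Mocetinostat raised the mRNA of 3 BH3-only genes, BCL2L11, BMF and PMAIP1, about 3-fold, and BID mRNA fell to 0.574 of its DMSO level. The anti-apoptotic genes BCL2, BCL2L1 and MCL1, the effectors BAX and BAK1, and the BH3-only gene BBC3 did not pass the test. So 3 of the 10 members rose and 1 fell at an adjusted p under 0.05 by edgeR's quasi-likelihood test, where 32.9% of all tested genes rose and 31.4% fell. The 4 changed members compare with 64.3% of all tested genes changed in either direction. With a log2 fold change beyond 1 also required, 3 members were upregulated and 0 downregulated, against 20.2% and 8.18% of all tested genes. For the members lower by that margin, the count was also 0 at an unadjusted p under 0.05 and 0 with DESeq2. The median log2 fold change was 0.13 over the 10 members and -0.002 over all tested genes. All values are RNA of a whole culture, in which fewer cells making a transcript and less RNA per cell cannot be told apart.

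Promoter sequence is shown for the 3 genes that rose, since an inhibitor of histone deacetylases acts on chromatin. Each line gives the 250 bases before a RefSeq start site (GRCh38.p14), 5′ to 3′ on the strand of the gene. Capitals mark matches, on either strand, to 4 motifs chosen after the sequences were seen: GTAAACA, a FOXO motif, TGACGT, the core of a cAMP response element, GGGCGG, a GC box, and CACGTG, an E-box.
BCL2L11 (chr2:111120664-111120913, plus strand): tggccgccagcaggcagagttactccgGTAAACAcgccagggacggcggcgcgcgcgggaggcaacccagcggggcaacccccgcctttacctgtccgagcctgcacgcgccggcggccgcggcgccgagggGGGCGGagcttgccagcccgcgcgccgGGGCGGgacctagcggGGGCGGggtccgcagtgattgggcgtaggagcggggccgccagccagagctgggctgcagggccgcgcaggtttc
BMF, the upstream of 2 start sites (chr15:40108880-40109129, minus strand): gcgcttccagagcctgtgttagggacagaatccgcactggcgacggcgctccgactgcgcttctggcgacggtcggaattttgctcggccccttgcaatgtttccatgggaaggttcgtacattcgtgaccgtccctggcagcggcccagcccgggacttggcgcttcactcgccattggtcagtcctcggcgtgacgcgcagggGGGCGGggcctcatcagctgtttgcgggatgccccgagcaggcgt
PMAIP1 (chr18:59899746-59899995, plus strand): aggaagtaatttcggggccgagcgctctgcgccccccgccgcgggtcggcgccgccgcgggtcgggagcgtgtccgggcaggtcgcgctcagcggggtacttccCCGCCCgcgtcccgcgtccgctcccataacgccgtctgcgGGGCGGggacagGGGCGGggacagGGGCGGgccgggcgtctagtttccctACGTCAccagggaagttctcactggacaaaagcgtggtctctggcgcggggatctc

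The 3 windows were rich in CpG. BCL2L11 held 34 CpG at 76.8% GC, BMF held 26 at 65.2% and PMAIP1 held 36 at 72.8%, where the median over all 35116 RefSeq windows was 11 CpG at 58% GC. The second BMF start site (chr15:40106967-40107216) held 0 CpG at 48.8% GC. The FOXO motif of BCL2L11 ended 217 bases before the start, and 2.98% of all windows held that motif. The cAMP element core of PMAIP1 lay 51 bases before the start, with 7.10% of all windows holding it. GC boxes numbered 3 in BCL2L11, 1 in BMF and 4 in PMAIP1, and occurred in 42.6% of all windows. They were not limited to the genes that rose, as 6 members held a GC box. The 5 windows of BID, which fell, held 0 to 4, and the BID window at chr22:17774470-17774719 held 4 with 30 CpG at 72% GC. CpG-rich promoters were not limited to the genes that rose: 9 members had a window, with 15 start sites between them, and 10 of the 15 lay above the all-window median of the CpG observed-to-expected ratio, 0.558, BCL2 and BAX with 24 and 25 CpG among them. BAX, which did not pass the test, held 4 E-boxes, a motif found in 6.35% of all windows. By GENCODE the BCL2L11 window overlapped no exon of its gene but lay inside the gene, downstream of a further start, and 13 bases of the BMF window were exonic. These matches describe letters in these windows only.

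BCL2L11 encodes BIM, which binds all of the main anti-apoptotic proteins and can activate BAX and BAK. The gene (ENSG00000153094) lies on the plus strand of chromosome 2, from 111119378 to 111168444. Its raw counts were 338, 130 and 210 in DMSO replicates 1, 2 and 3, and 434, 127 and 201 after mocetinostat. Scaled by library size and TMM factors to CPM, counts per fixed library size, that was 30.6, 27.1 and 31.0 in DMSO and 86.0, 78.7 and 83.3 with mocetinostat. All 3 mocetinostat samples lay well above all 3 DMSO samples, and the raw counts are close because the mocetinostat libraries were shallower. The BCL2L11 mean rose from 29.5 ± 2.14 CPM to 82.7 ± 3.71 CPM (SD, n = 3). Its log2 fold change was 1.48 (SE 0.13, edgeR adjusted p = 9.1e-17), or 2.80-fold with a 95% interval of 2.34 to 3.34. The antisense transcript MIR4435-2HG covers 10.8% of the exon bases of BCL2L11, and its own log2 fold change was -0.10 (SE 0.12, edgeR adjusted p = 0.503).

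BMF encodes a BH3-only protein that is tethered to the cytoskeleton by a dynein light chain and is freed by loss of attachment. The gene (ENSG00000104081) lies on the minus strand of chromosome 15, from 40087890 to 40108892. DMSO samples held 152, 65 and 105 counts and mocetinostat samples 195, 73 and 120. In CPM the DMSO values were 13.8, 13.5 and 15.5, and the mocetinostat values 38.7, 45.2 and 49.7. The lowest mocetinostat sample was more than double the highest DMSO sample. Mean BMF rose from 14.3 ± 1.06 CPM to 44.5 ± 5.57 CPM (SD, n = 3). The log2 fold change was 1.62 (SE 0.17, edgeR adjusted p = 3.85e-13) or 3.08-fold, with an interval of 2.43 to 3.91. BMF-AS1, which covers 8.46% of its exon bases on the other strand, had 0 counts in all 6 samples.

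PMAIP1 encodes NOXA, a BH3-only protein that binds MCL1 and BCL2A1. The gene (ENSG00000141682) lies on the plus strand of chromosome 18, from 59899996 to 59904305, and overlaps no other annotated exon. Counts were 331, 178 and 236 in DMSO and 568, 144 and 251 with mocetinostat. CPM values were 29.9, 37.1 and 34.8 in DMSO against 113, 89.2 and 104 with mocetinostat. Again no sample of one group reached the other, with mocetinostat replicate 2, the shallowest library, lowest in its group. The PMAIP1 mean rose from 33.9 ± 3.64 CPM to 102 ± 11.8 CPM (SD, n = 3). That is 1.62 on the log2 scale (SE 0.13, edgeR adjusted p = 5.93e-19) or 3.07-fold, with an interval of 2.58 to 3.66. The intervals of BCL2L11, BMF and PMAIP1 overlap, and differences in size between the 3 genes were not tested. All 3 passed both thresholds in each of 15 fits, the reported one and 14 alternatives, over which the log2 fold change ran from 1.23 to 2.02 for BCL2L11, 1.37 to 2.16 for BMF and 1.37 to 2.15 for PMAIP1.

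**Figure D1:**
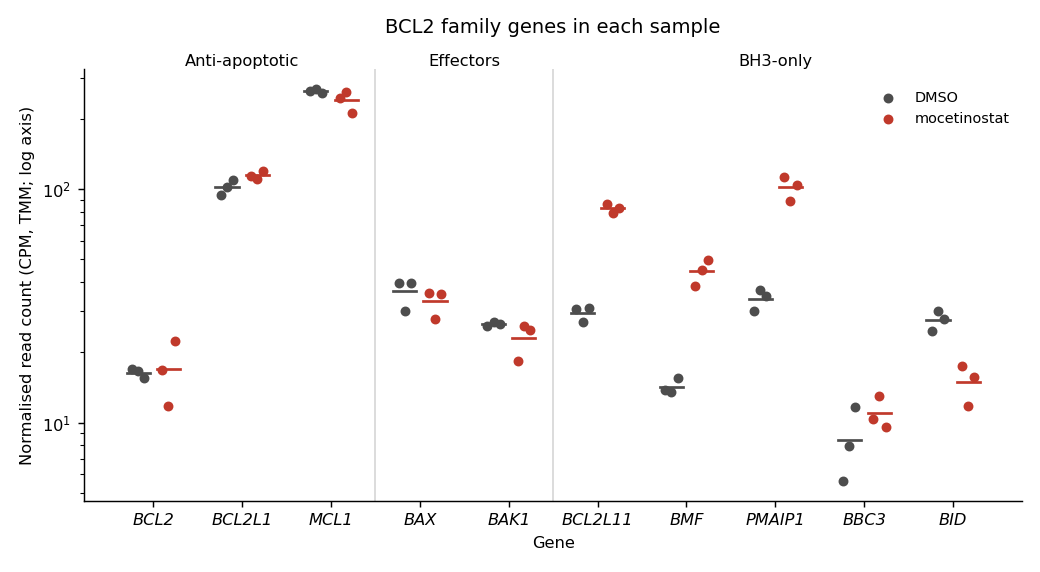
Normalised read count of each of the 10 BCL2 family genes in every sample, in TMM-normalised CPM on one log axis, with a point for each sample and a bar at the mean of 3. BCL2L11, BMF and PMAIP1 have all 3 mocetinostat points above the DMSO points and BID has them all below, and heights of different genes are not comparable here because CPM is not per length.

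BID, which joins the death receptors to the mitochondrion once caspase-8 has cleaved its protein, moved the other way. The gene (ENSG00000015475) lies on the minus strand of chromosome 22, from 17734138 to 17774770. Counts were 273, 144 and 188 in DMSO and 88, 19 and 38 with mocetinostat. CPM values were 24.7, 30.0 and 27.7 in DMSO and 17.4, 11.8 and 15.7 with mocetinostat. Every mocetinostat sample lay below every DMSO sample. The BID mean fell from 27.5 ± 2.65 CPM to 15.0 ± 2.91 CPM (SD, n = 3). Its log2 fold change was -0.80 (SE 0.19, edgeR adjusted p = 0.000206), short of the fold threshold. BID passed the adjusted p in 14 of the 15 fits. The exception scaled each library to GAPDH, which gave -0.26 with an adjusted p of 0.243. GAPDH itself went from 3039 ± 89.8 CPM in DMSO to 2111 ± 76.3 CPM (log2 fold change -0.53), so that this scaling moved the median over all tested genes to 0.53. Relative to that median the BID change was -0.80. Such a scaling shifts all genes by a similar amount, so this value returns the TMM estimate by construction and is not a separate result.

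BBC3, which encodes PUMA, a BH3-only protein that binds all of the main anti-apoptotic proteins, had 62, 38 and 79 counts in DMSO and 52, 21 and 23 with mocetinostat. In CPM the DMSO samples read 5.61, 7.91 and 11.6 and the mocetinostat samples 10.3, 13.0 and 9.53. The groups overlapped, with DMSO replicate 3 above 2 of the mocetinostat samples. The log2 fold change was 0.38 (SE 0.28, edgeR adjusted p = 0.244), with a 95% interval of -0.19 to 0.95 that covers both a small decrease and a near doubling. It ranged from 0.09 without DMSO replicate 1 to 0.68 without DMSO replicate 3.

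Among the anti-apoptotic genes, MCL1, a short-lived protein that sequesters BAK and BIM, had 2912, 1292 and 1750 counts in DMSO and 1245, 421 and 514 with mocetinostat. This was 263, 269 and 258 CPM in DMSO against 247, 261 and 213 with mocetinostat, and the groups overlapped. The log2 fold change was -0.14 (SE 0.08, edgeR adjusted p = 0.154), with an interval of -0.30 to 0.03. MCL1 passed in 3 alternatives, lower without mocetinostat replicate 2 (-0.21, adjusted p = 0.0453) and without a filter on low counts (-0.39, adjusted p = 7.65e-05), and higher under GAPDH scaling (0.39, adjusted p = 0.000337). BCL2L1, whose main product is BCL-XL, read 94.6, 102.0 and 109 CPM in DMSO and 114, 110.3 and 119.8 with mocetinostat. The 3 mocetinostat samples lay just above the DMSO samples, and the log2 fold change of 0.17 (SE 0.10, interval -0.03 to 0.38) had an edgeR adjusted p of 0.141. It passed when each sample had to hold at least 10 counts (adjusted p = 0.0286), when libraries were thinned to one depth (0.0468) and under GAPDH scaling. The antisense ABALON covers 41.3% of the BCL2L1 exon bases and had 2, 1 and 6 counts in DMSO and 0 in each mocetinostat sample. BCL2, the founding member, read 17.0, 16.7 and 15.5 CPM in DMSO and 16.9, 11.8 and 22.4 with mocetinostat. The mocetinostat samples lay on both sides of the DMSO samples, and the log2 fold change was 0.08 (SE 0.21, interval -0.34 to 0.50, edgeR adjusted p = 0.752).

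Neither effector passed the test. BAX, which moves from the cytosol to the mitochondrion when activated, read 39.7, 30.2 and 39.6 CPM in DMSO and 35.9, 27.9 and 35.6 with mocetinostat, with overlapping groups. Its log2 fold change was -0.12 (SE 0.15, interval -0.43 to 0.18, edgeR adjusted p = 0.494). BAK1, whose protein sits in the mitochondrial membrane from the start, read 26.05, 26.9 and 26.4 CPM in DMSO and 18.4, 26.03 and 24.9 with mocetinostat. The highest mocetinostat sample lay below the lowest DMSO sample by less than 0.1 CPM. The log2 fold change of BAK1 was -0.25 (SE 0.18, interval -0.61 to 0.11, edgeR adjusted p = 0.231). In all, 4 members had every mocetinostat sample above every DMSO sample, 2 had every one below and 4 overlapped, where 33.7% of all tested genes lay fully higher and 32.8% fully lower. For MCL1, BAX and BAK1 the sign of the fold change turned under GAPDH scaling. In that fit alone BAX passed as higher (0.42, edgeR adjusted p = 0.0208). The same held for BCL2 (0.62, edgeR adjusted p = 0.0105) and BBC3 (0.91, edgeR adjusted p = 0.00657).

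**Figure D2:**
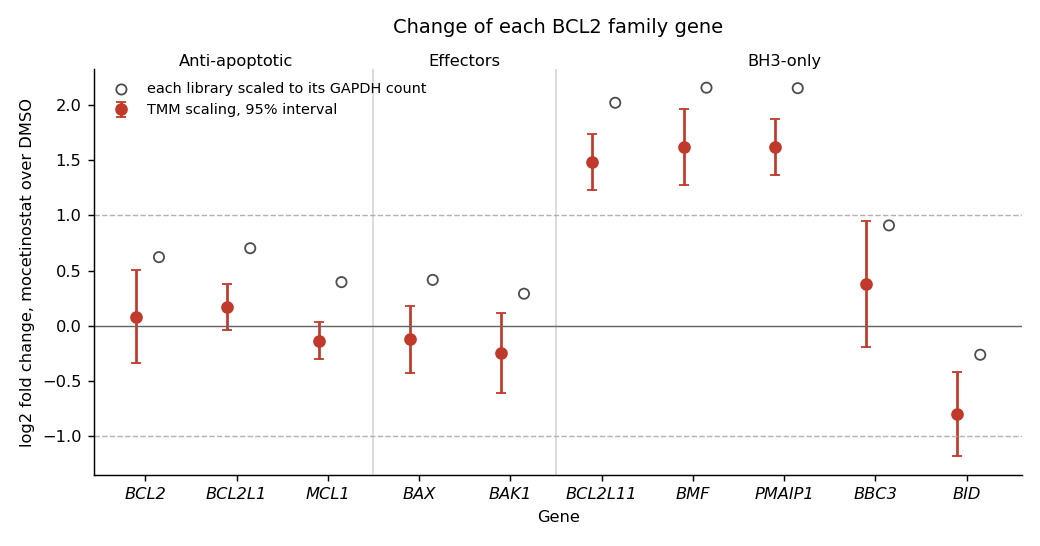
log2 fold change, mocetinostat over DMSO, of the 10 members grouped by role, with filled points and 95% confidence intervals from the edgeR fit with TMM scaling, open points for GAPDH scaling, and dashed lines at the fold threshold of 1 in each direction. The TMM intervals of BCL2L11, BMF and PMAIP1 lie above 1, that of BID lies below 0, the other 6 include 0, and every open point lies higher than its filled point.

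Levels of different genes were set side by side only per length, as CPM per kilobase of exon. In DMSO, MCL1 was the highest member at 42.3 ± 0.895 (SD, n = 3), followed by BCL2L1 at 24.3 ± 1.75. The BH3-only gene PMAIP1 came next at 15.5 ± 1.66, with the effectors BAX at 14.1 ± 2.12 and BAK1 at 11.9 ± 0.184. BID stood at 6.21 ± 0.600 and BCL2L11 at 4.38 ± 0.317. The lowest members were BBC3 at 2.63 ± 0.956, BMF at 2.62 ± 0.195 and BCL2 at 1.30 ± 0.0637. Of the neighbours in this order, PMAIP1 and BAX, BAX and BAK1, and BBC3 and BMF did not differ beyond their summed SD. The order depends on the length used. BAX has 2587 exon bases in all but 1358 in its longest transcript, against 2186 and 1899 for PMAIP1. At 36.5 CPM for BAX and 33.9 CPM for PMAIP1 in DMSO, BAX would stand above PMAIP1 by the longest transcript.

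With mocetinostat PMAIP1 reached 46.6 ± 5.41 per kilobase, above MCL1 at 38.6 ± 3.96 and BCL2L1 at 27.3 ± 1.14. BCL2L11 reached 12.3 ± 0.550, between BAX at 12.8 ± 1.76 and BAK1 at 10.4 ± 1.85, and BMF reached 8.18 ± 1.02. BBC3 stood at 3.44 ± 0.574 and BID at 3.39 ± 0.659, and BCL2 was again the lowest at 1.35 ± 0.421. The neighbours PMAIP1 and MCL1, BAX and BCL2L11, BCL2L11 and BAK1, BAK1 and BMF, and BBC3 and BID lay within their summed SD. Thus PMAIP1 cannot be placed above MCL1 on these samples.

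**Figure D3:**
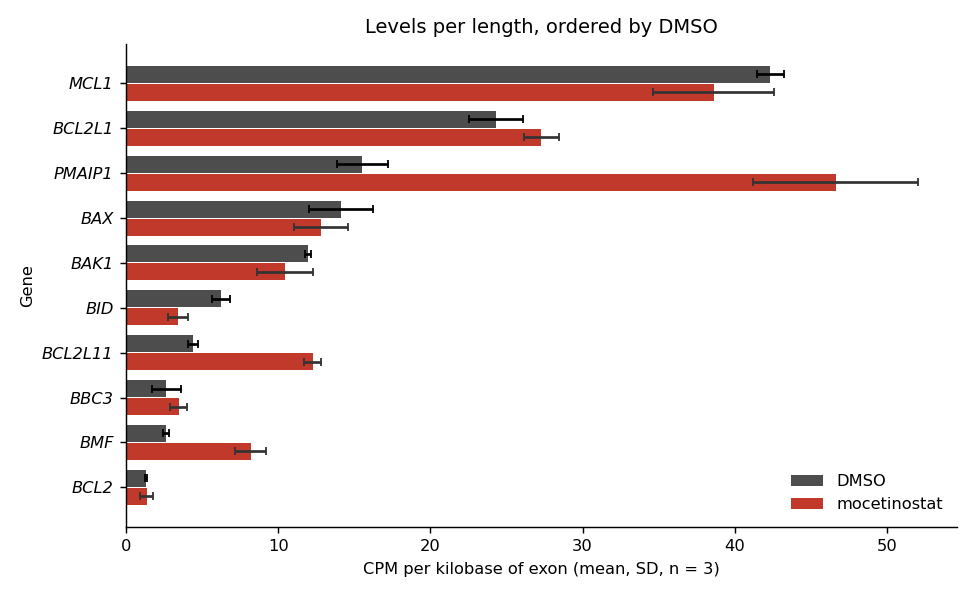
Level of each member per length, as TMM-normalised CPM per kilobase of exon on a linear axis from 0, with bars for the mean and lines for the SD of 3 samples, ordered by the DMSO level. By this length PMAIP1 goes from the third level in DMSO, within the spread of BAX, to the highest mean with mocetinostat, with an SD that overlaps that of MCL1. BCL2 is lowest in both groups.

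Ratios within a sample do not depend on how libraries are scaled against each other, and pairs were taken from known binding partners. The BH3-only genes in these pairs are the 3 that rose, and BBC3 and BID were given no ratio of their own. Since MCL1 and BCL2L1 did not pass the test, these 3 ratios largely restate the fold changes of the genes above the line. The ratio of BCL2L11 to MCL1 per kilobase was 0.107, 0.0929 and 0.111 in DMSO and 0.322, 0.278 and 0.361 with mocetinostat, 3.09 times higher on average. PMAIP1 to MCL1 went from 0.324, 0.392 and 0.384 to 1.30, 0.974 and 1.39, which is 3.33 times. BMF to BCL2L1 went from 0.112, 0.102 and 0.109 to 0.262, 0.316 and 0.320, or 2.78 times. None of these 3 ratios overlapped between the groups. The ratio of the effector BAX to BCL2, by contrast, was 11.4, 8.84 and 12.5 in DMSO and 10.4, 11.5 and 7.76 with mocetinostat, and the groups overlapped.

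Within the sum of the 3 anti-apoptotic genes, MCL1 made up 62.3% ± 1.85 in DMSO and 57.3% ± 3.89 with mocetinostat (SD, n = 3), with overlapping groups. BCL2L1 made up 35.7% ± 1.97 and 40.7% ± 3.20, and BCL2 1.91% ± 0.126 and 2.02% ± 0.701. The BCL2L1 shares did not overlap but nearly touched, with 37.9% the highest in DMSO and 38.0% the lowest with mocetinostat. The antisense ABALON covers 41.3% of the BCL2L1 exon bases, and whether counting used the strand is not given. The level of BCL2L1 per length, its share and its ratios are uncertain to that extent. The sum of the 5 BH3-only members over the sum of the 3 anti-apoptotic members, a ratio added after seeing the data, was 0.424, 0.475 and 0.484 in DMSO and 1.15, 0.977 and 1.17 with mocetinostat. This ratio was 2.39 times higher with mocetinostat, and no sample of one group reached the other. PMAIP1 was the largest part of the BH3-only sum in both groups, at 15.5 and 46.6 CPM per kilobase. BID fell and BBC3 did not pass, so the rise was not shared by all 5 genes. The ratio counts mRNA per length and says nothing of protein.

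**Figure D4:**
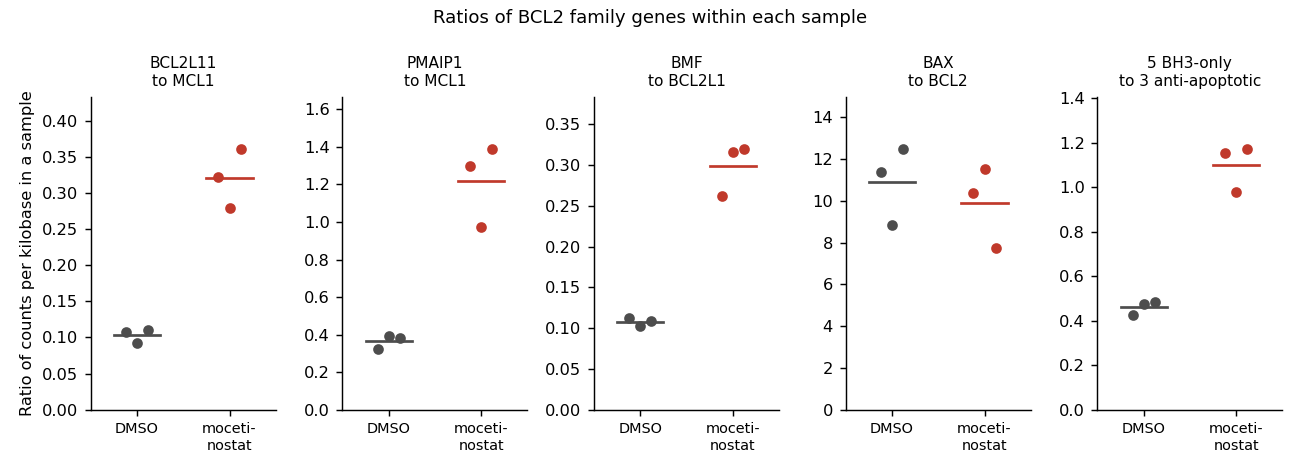
Ratios of BCL2 family members within each sample, from counts per kilobase, on a linear axis from 0 for each ratio, with a point for each sample and a bar at the mean of 3. The BCL2L11 to MCL1, PMAIP1 to MCL1, BMF to BCL2L1 and summed BH3-only ratios lie higher in all 3 mocetinostat samples, and the BAX to BCL2 ratio overlaps.

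Of 15 other BCL2 family and BH3-bearing genes, 11 were tested, 3 of which rose and 3 fell (median log2 fold change -0.13). BIK, a BH3-only protein of the endoplasmic reticulum, had 4, 2 and 2 counts in DMSO and 31, 4 and 19 with mocetinostat, a rise of 3.95 on the log2 scale (SE 0.59, edgeR adjusted p = 1.8e-08). The anti-apoptotic BCL2A1, a NOXA partner, also rose, from 3, 2 and 1 counts to 14, 6 and 16. With so few reads the pooled rate ratios, 16.8 for BIK and 15.0 for BCL2A1, carried exact 95% counting intervals of 7.97 to 41.0 and 6.25 to 43.5. BIK and BCL2A1, both among the 3 that rose, passed the filter on low counts only through their mocetinostat samples. Their test could therefore find only a rise, and its p-value is not separate support for one. Each was tested in 13 of the 15 fits. BNIP3L, a mitophagy receptor, rose by 0.36 (edgeR adjusted p = 0.00256) and passed in 12 of the 15 fits, all but those without a filter (0.517), without DMSO replicate 2 (0.073) and without mocetinostat replicate 1 (0.0581). BCL2L2, the anti-apoptotic BCL-W, fell by 0.69 (SE 0.19, edgeR adjusted p = 0.000914) and the autophagy gene BECN1 fell by 0.57 (SE 0.11, edgeR adjusted p = 1.21e-05). Neither BCL2L2 nor BECN1 passed under GAPDH scaling. BCL2L13 fell by 0.29 in the reported fit, passed in only 5 of the 15 fits and turned positive under GAPDH scaling. BOK, BAD, BCL2L12, BNIP1 and BNIP3 did not pass, at -0.13, -0.001, -0.34, -0.38 and 0.01. BCL2L10, BCL2L14, BCL2L15 and HRK were not tested, with at most 9 counts in any sample.

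Downstream of the mitochondrion, the list of caspases, apoptosome and released factors had 15 tested genes, 3 higher and 4 lower (median 0.07), with 0 past the fold threshold in either direction. APAF1, which builds the apoptosome, rose by 0.68 (SE 0.14, edgeR adjusted p = 3.35e-05), and the nuclease gene ENDOG fell by 0.94 (edgeR adjusted p = 0.000953) but did not pass under GAPDH scaling. CYCS, the gene of cytochrome c, rose by 0.26 with an edgeR adjusted p of 0.0463 and passed in 8 of the 15 fits. CASP8 and CASP9 did not pass, at 0.31 and 0.68 (edgeR adjusted p = 0.102 and 0.0634). Of 5 tested inhibitor of apoptosis genes, 1 rose and 2 fell (median -0.20): BIRC3 rose by 1.90 (SE 0.24, edgeR adjusted p = 9.47e-11), BIRC5, which encodes survivin and is tied to mitosis, fell by 1.33 (SE 0.10, edgeR adjusted p = 2.38e-19), and XIAP stood at -0.20 (edgeR adjusted p = 0.157).

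On the death receptor side, which BID joins to the mitochondrion, 11 genes were tested, 4 rose and 2 fell (median 0.44). TNFRSF10B, a TRAIL receptor, rose by 0.80 (SE 0.11, edgeR adjusted p = 6.16e-10) and TNFRSF21 rose by 1.03 (SE 0.08, edgeR adjusted p = 2.51e-18). CFLAR, whose product FLIP blocks caspase-8, had a log2 fold change of -1.05 (SE 0.19, edgeR adjusted p = 1.36e-06). FAS did not pass, at 0.75 (edgeR adjusted p = 0.0878), and its value hung on single libraries, with 0.0327 without mocetinostat replicate 1 and 0.92 without mocetinostat replicate 2, where it passed (edgeR adjusted p = 0.046).

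Of 13 tested transcription factors that act on BCL2 family genes, 3 rose and 4 fell (median 0.06). FOXO1, a known activator of BCL2L11, rose by 2.39 (SE 0.31, edgeR adjusted p = 3.63e-10), while FOXO3 stood at 0.21 (edgeR adjusted p = 0.136). NFKB1 fell by 1.77 (SE 0.15, edgeR adjusted p = 5.71e-17). MYC fell by 0.26 (edgeR adjusted p = 0.011), and passed in 12 of the 15 fits, of which 1, GAPDH scaling, gave a rise (0.27). MYC did not pass in the others, with adjusted p up to 0.11, among them the fit without mocetinostat replicate 2 (adjusted p = 0.0715). E2F1 and DDIT3 did not pass, at 0.12 and -0.13.

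Of 13 tested genes for binding and turnover partners, 2 rose and 7 fell (median -0.31). The dynein light chains that tether BIM and BMF moved apart: DYNLL1 fell by 0.46 (SE 0.09, edgeR adjusted p = 1.01e-05), turning positive under GAPDH scaling, and DYNLL2 rose by 0.47 (SE 0.08, edgeR adjusted p = 1.09e-06), passing in 14 of the 15 fits. USP9X, the deubiquitinase that stabilizes MCL1 protein, rose by 0.57 (SE 0.07, edgeR adjusted p = 3.42e-11), and BCLAF1 fell by 1.22 (SE 0.10, edgeR adjusted p = 6.52e-19). Over all 7 lists of apoptosis genes, 1 of which is not described here, 80 of 93 genes were tested, 22 rose, 23 fell and 35 did not pass (median 0.01), and 8 were upregulated and 5 downregulated beyond the fold threshold.

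**Figure D5:**
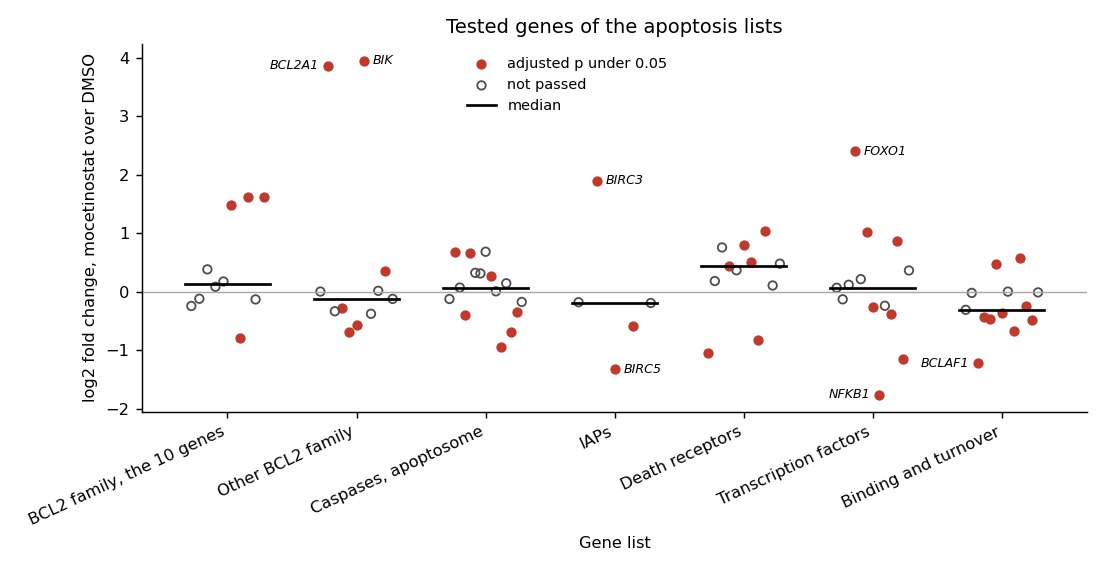
log2 fold change, mocetinostat over DMSO, of each tested gene in the BCL2 family and in 6 of the 7 apoptosis lists. Filled points passed an adjusted p of 0.05, open points did not, and bars mark each list's median, which runs from -0.31 for binding and turnover partners to 0.44 for death receptors.

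Libraries held 1619344 to 11031132 counts, with the mocetinostat samples shallower (1619344 to 5089542) than the DMSO samples (4873426 to 11031132), and the smallest count of any member was 19. The 10 most abundant genes took 5.98 to 6.24% of counts in DMSO and 8.89 to 8.91% with mocetinostat. Of 8 chondrocyte markers 7 were tested and all 7 rose, their summed level going from 115 to 141 CPM in DMSO to 257 to 297 CPM. All 5 mesenchymal markers were tested, 3 higher and 2 lower, COL1A1 at -0.21 and COL3A1 at -1.35, with summed levels of 5914 to 6869 CPM in DMSO and 6472 to 7000 CPM with mocetinostat. Summed epithelial markers went from 0.208 to 0.884 CPM up to 23.6 to 35.3 CPM, with 2 of 4 tested, EPCAM and CDH1, both higher. Leukocyte markers went from 1.33 to 2.08 CPM up to 5.35 to 11.2 CPM. Of these 4 only CD14 was tested (log2 fold change 2.73). Mean PTPRC went from 0.685 to 0.611 CPM, and CD3E was at 0 in all samples. COMP, EPCAM, CDH1 and CD14 passed the filter on low counts only through mocetinostat samples, so only a rise could be found for them. The part of these markers in the BCL2 family results was not tested. Whether counting used the strand is not given in the sources used here, so reads of BCL2L11, BMF, BCL2L1 and their antisense partners cannot be told apart.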

How the data were processed

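The deposited table holds raw counts per gene, which the authors made by trimming and removing ribosomal reads, aligning to GRCh38 with STAR 2.6.1d and counting with featureCounts 1.6.4, per the submitters' processing notes and the study's methods. Dose and time come from those methods. Counts were filtered with edgeR's filterByExpr (minimum count 10), scaled by TMM and fitted with edgeR 4.0.16 (glmQLFit, glmQLFTest, treatment only, 3 against 3, R 4.3.3), with Benjamini-Hochberg adjustment over 13966 genes. A gene changed at an adjusted p under 0.05 and was upregulated or downregulated when its absolute log2 fold change also exceeded 1. Standard errors are the fold change over the root of F, and the common biological variation was 9.3%. Alternatives were other scaling, other filters, DESeq2 1.42.0, a replicate block, thinning to 1619344 counts and leaving out each sample, and scripts were tested on simulated counts. Per-length levels used union exon length from GENCODE release 44, matched to 99.5% of IDs. Promoters came from RefSeq. A planned search of member proteins for the BH3 motif was not run. Named genes were the members, the other BCL2 family genes, fixed apoptosis genes, and the highest and lowest gene of each list. The members and lists were chosen with earlier results of these data known. Some genes of these lists, and 1 list, are not reported here. Counting intervals cover counting error only.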

Additional observations from a re-analysis of the deposited data

How the results depend on the processing

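BCL2L11, BMF and PMAIP1 passed both thresholds in all 15 fits, and the members changed higher numbered 3 or 4 in every one except GAPDH scaling, where they were 8. Members changed lower were 0 under GAPDH scaling, 3 without a filter (BID, MCL1 and BAK1) and 1 to 2 when single samples were left out, the second being MCL1 without mocetinostat replicate 2. Without a filter, 1 member was downregulated past the fold threshold. GAPDH scaling gave 52 other pathway genes changed higher, 6 lower, 21 upregulated and 1 downregulated, and no filter gave 36 lower; leaving out single samples gave 18 to 25 higher, 19 to 24 lower, 7 to 11 upregulated and 5 to 6 downregulated. GAPDH scaling shifted the median of all genes to 0.53, and no filter shifted that of the 13966 genes by -0.25. Over all 13966 genes, GAPDH scaling gave 9081 changed, 4425 upregulated and 284 downregulated, against 8985, 2827 and 1142 in the reported fit. No filter gave 9885 changed of 40504. Signs turned under GAPDH scaling for MCL1 (0.39), BAX (0.42), BAK1 (0.29), BOK (0.40), BAD (0.54), BCL2L12 (0.20), BCL2L13 (0.24), BNIP1 (0.16), XIAP (0.34), MDM2 (0.27), DDIT3 (0.41), MYC (0.27), DYNLL1 (0.0711) and AEN (0.25). They turned without a filter for BCL2 (-0.17), BCL2L1 (-0.0799), BNIP3 (-0.24), FOXO3 (-0.0409) and E2F1 (-0.14), and after thinning for BCL2 (-0.0334), BAX (0.12) and BAD (0.11). BAD was 0.0177 with RLE factors, 0.0144 with library size and 0.0784 when every sample had to reach 10 counts, and BNIP3 was -0.0264 with DESeq2. Leaving out single samples gave -0.13 to 0.20 for BCL2, -0.30 to 0.0107 for BOK, -0.0959 to 0.0251 for BAD and -0.0742 to 0.0746 for BNIP3. With the longest transcript as length, 3 neighbour pairs lay within their spread with mocetinostat, against 5 with exon length and 1 to 5 when single samples were left out, and BCL2 made up 2.40% of the anti-apoptotic sum in DMSO. The BAX to BCL2 ratio, mocetinostat over DMSO, ran from 0.829 to 1.01 without single samples. The causes were not tested. Same-numbered samples had correlations of 0.037, 0.027 and -0.040 over 9997 genes, and not every sample correlated best with its own number, so the numbers were not taken to pair samples. A replicate block changed no call of a member and gave 8849 changed genes against 8985, with CYCS and BCL2L13 at adjusted p of 0.0515 and 0.0502. DESeq2 gave 8424.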
